A study of Mus musculus with 96 samples.

Results

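The translation initiation factor genes described here are all 56 genes of a single-cell count table whose symbols start with Eif1 to Eif6, out of 38406 genes listed. They were chosen by symbol alone, and 4 further rows whose symbols carry -ps, a mark of pseudogenes, were left out. The table holds 96 single haematopoietic stem cells from the bone marrow of C57BL/6 mice, sorted into wells as the HSC1 population, with 1 library per cell and no treatment, genetic change or second group. The gate took cells that lacked lineage markers, Flt3, CD48 and CD34 and carried CD150, Sca-1 and c-Kit. The labels give the mice as 9 to 12 weeks old. Which mouse each cell came from is not given in the sources used here. The cells therefore stand for a single sample, relations across them are given as descriptions without p-values, and surface markers rather than a functional test define the population. Of the 96 cells, 92 passed a technical filter, and 54 of the 56 genes had a count in at least 1 of them.

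Translation of most mRNAs begins when the small ribosomal subunit, carrying initiator tRNA bound to eIF2, is recruited to the capped end of the mRNA by eIF4F and eIF3, scans to a start codon under the control of eIF1 and eIF1A, and is joined by the large subunit with the help of eIF5 and eIF5B. The pathway has a pair of well-known brakes. Kinases that phosphorylate eIF2alpha block the exchange factor eIF2B, and the 4E-BP repressors, which mTORC1 inactivates by phosphorylation, keep the cap-binding protein eIF4E from its scaffold eIF4G. Haematopoietic stem cells are known to make less protein per cell than most of their progeny, and 4E-BP1 and 4E-BP2 are known to hold that rate down. Counts of mRNA do not show phosphorylation, protein amounts or rates of translation.

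The 92 cells held 739093 to 3473151 gene counts (median 1599930) and 4945 to 8727 detected genes. Of the 9 stem cell markers checked, Meis1 was counted in all 92 cells, Kit in 91, and Procr and Ly6a in 85 each. Slamf1 was counted in 58 cells and Fgd5 in 42. Of 15 markers of other blood and endothelial cells, 10 had counts. Cd3e, Hba-a1, Elane and Mpo were among those with none, whereas Lyz2 was counted in 92 cells, Pecam1 in 53, and Pf4 and Itga2b in 34 each. A set of 6 cells stood apart. Cell 18 had the most gene counts and the fewest detected genes, and the lowest ribosomal protein score of the 92. Among the 5888 genes with a mean normalized count of at least 50, it held the highest value of 865 (14.7%), and among the 47 initiation factor genes at that level, of 10 (21.3%). Cells 66, 78, 49, 53 and 71 had the 5 highest scores of 28 G2/M genes, with mean z scores of 4.26, 3.27, 2.12, 1.17 and 1.13, and the next cell was at 0.183.

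Sequences around 4 transcription starts are shown because the eIF2 gamma subunit is encoded by an X-linked and a Y-linked copy, of which only the former was counted, and because runs of C and T at a transcription start are known as the mark of mRNAs, those of ribosomal proteins among them, whose translation depends on mTORC1. Each is 30 bases of RefSeq sequence on GRCm38.p6, written on the gene's strand from 15 bases before the annotated start, with every unbroken run of at least 8 C or T in capitals.
Eif2s3x, chrX:94212637-94212666, minus strand: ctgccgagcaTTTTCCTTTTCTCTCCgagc
Eif2s3y, chrY:1010580-1010609, plus strand: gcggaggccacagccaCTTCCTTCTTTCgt
Eif3f, chr7:108934400-108934429, plus strand: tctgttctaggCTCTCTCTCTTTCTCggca
Eif3l, chr15:79075208-79075237, plus strand: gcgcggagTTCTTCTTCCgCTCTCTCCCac
The run in Eif2s3x was 16 letters long and that in Eif3f 15, both reaching across the start, and Eif3l carried runs of 10 and 9 and Eif2s3y a run of 12. Runs of at least 8 on the gene's own strand that overlapped the 15 bases on either side of a start were found for 12 of the 44 members with a promoter sequence (27.3%), for 20.04% of all 27025 genes with one and for 49.2% of 63 ribosomal protein genes. A match is a description of these letters and not of a site in use.

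Initiation factor mRNAs made up a small share of the counts of each cell. The 56 genes took 0.819% of gene counts in the lowest cell (cell 20, 95% Wilson interval 0.806 to 0.832%), a median of 1.12% and 1.61% in the highest (cell 53). The intervals cover counting error only, since the reads carry no molecular identifiers. Subunits of eIF3 supplied 37.9% of the members' counts, eIF4F and its partners 20.5%, the group of Eif5a, Eif5a2, Eif5b and Eif6 12.97% and the scanning factors 12.6%. The eIF2alpha kinases supplied 1.01% and the 4E-BP genes 1.59%. Of the 54 genes with counts, 11 were counted in every cell (20.4%), against 2.84% of all 21211 genes with counts. These were Eif1, Eif5, Eif3c, Eif3e, Eif3f, Eif3h, Eif3i, Eif3k, Eif4a1, Eif4a2 and Eif5a. Per kilobase of annotated exon, the median of the members' mean normalized counts was 43.3, against 2.95 over all genes with counts, and among genes counted in at least 46 cells it was 50.6 against 26.4.

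**Figure D1:**
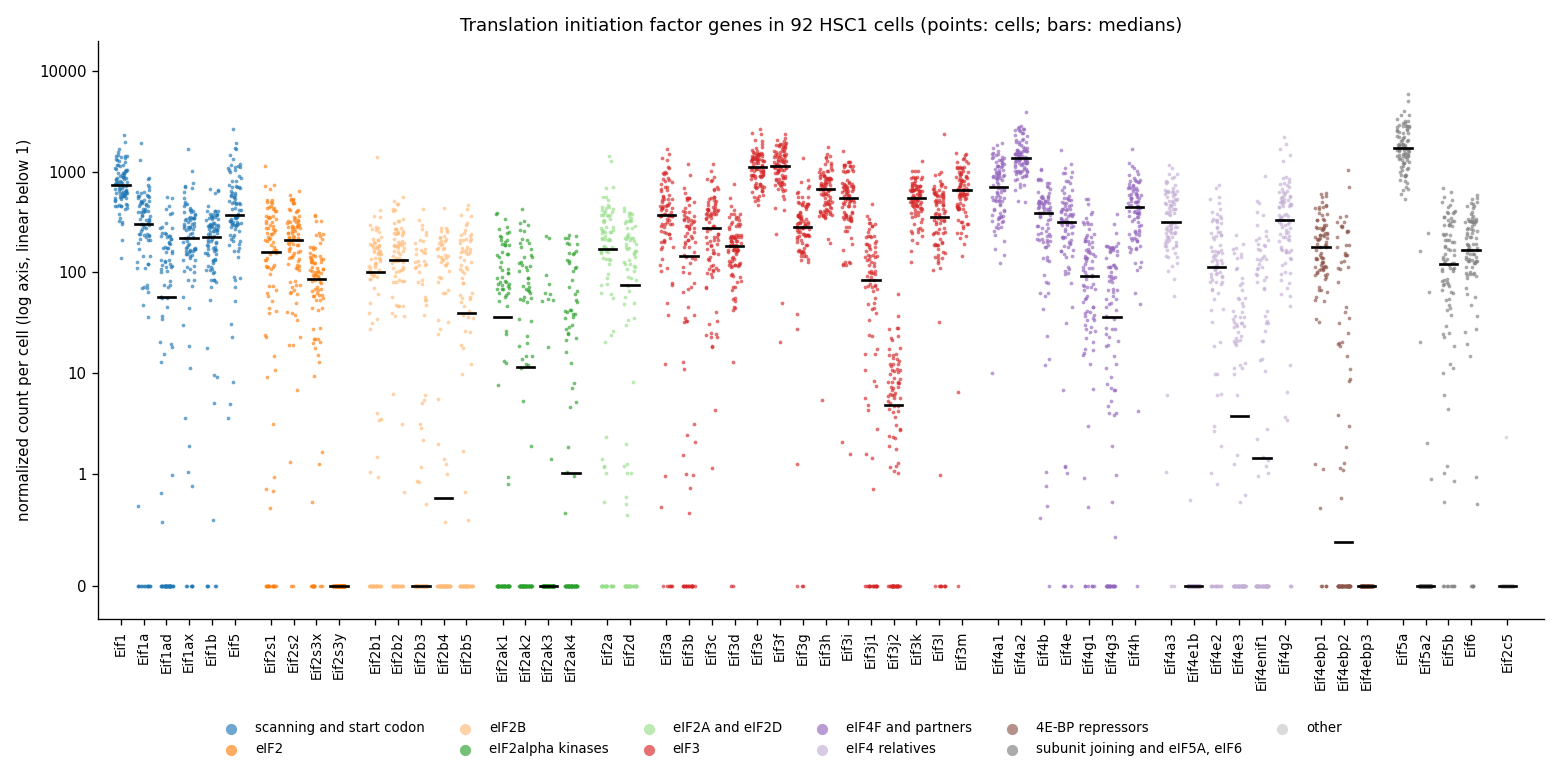
Normalized count of each of the 56 initiation factor genes (x axis, by factor group in colour) in each of 92 HSC1 cells (y axis, log scale, linear below 1). Points are cells and black bars are medians; Eif5a and Eif4a2 lie highest, while Eif2s3y and Eif4ebp3 are at 0 in all cells.

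The highest member was Eif5a (chr11:69916714-69921958 on GRCm38, minus strand), which encodes eIF5A, a hypusine-bearing protein that helps ribosomes through peptide bonds that form slowly. A value given here as mean ± SD is the mean normalized count with its SD over the 92 cells. The normalized count of Eif5a was 531 in the lowest cell, 1717 at the median and 5944 in the highest (cell 18), with a mean of 1889 ± 942 (SD, n = 92 cells). Every cell thus held Eif5a, and the 4 highest values lay in cells 18, 53, 78 and 49. Per kilobase its mean level was 795, followed by Eif3h at 440 ± 196, Eif3f at 411 ± 160 and Eif1 at 391 ± 182 (SD over cells). The last 3 differed from each other by less than their spread over cells, as did most neighbours further down the order. When the longest transcript served as the length, Eif5a stayed first at 1315 and Eif1, Eif4a2 and Eif3h followed at 620, 553 and 547. Its paralog Eif5a2 was counted in 6 cells, with a highest value of 243 and a mean of 5.37 ± 31.1, and took the remainder of a pair in which Eif5a held 99.9% of length-normalized counts. Eif5b, the GTPase of subunit joining, was counted in 84 cells at 167 ± 161 (16.9% of its exon length overlaps Rev1). Eif6, which keeps free large subunits from joining early, was counted in 87 cells at 204 ± 142.

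Of the scanning and start codon factors, Eif1 led. It is the gene of eIF1, which keeps the scanning ribosome from settling on wrong codons. Its normalized count ranged from 140 over a median of 743 to 2292 (cell 18), with a mean of 820 ± 382. Eif1b, its paralog, was counted in 87 cells at 229 ± 148, and Eif1 took 65.8% of the pair's length-normalized counts (28.8% to 100% per cell, over 50% in 73 cells). The eIF1A pair was split the other way round. Eif1a was counted in 79 cells at 329 ± 294 and the X-linked Eif1ax in 86 cells at 266 ± 245, which left Eif1ax with 39.05% of the pair, from 0% in 6 cells to 100% in 13. Eif1ad, named for its eIF1A-like domain, was the lowest of the group per kilobase at 38.5. It was counted in 60 cells, with a median of 56.6 and a highest value of 558. Eif5, which makes eIF2 hydrolyse its GTP once a start codon is found, was counted in every cell, from 3.56 over a median of 372 to 2668 (cell 27), at 538 ± 459. At least 1 gene of the eIF1 pair, at least 1 of the eIF1A pair and Eif5 were all counted in each of the 92 cells.

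The 3 subunits of eIF2, the GTPase that brings the initiator tRNA, were present at similar and moderate levels. Eif2s1, the alpha subunit that the kinases phosphorylate, was counted in 77 cells, with a median of 159, a highest value of 1126 (cell 53) and a mean of 204 ± 208. Eif2s2, the beta subunit, was counted in 90 cells at 225 ± 151. Eif2s3x (chrX:94188707-94212862, minus strand), the gamma subunit with a start printed above, was counted in 80 cells, with a median of 85.1, a highest value of 372 and a mean of 94.1 ± 83.6. Per kilobase the 3 lay between 24.7 for Eif2s3x and 41.1 for Eif2s1, a 1.67-fold range that is within their spread over cells. Eif2s3y, the Y-linked gamma subunit, had 0 counts in all 92 cells, as had Ddx3y, Kdm5d and Uty, and Xist was counted in every cell. A count of 0 in 92 cells allows a share of up to 3.26% of cells with a read. All 3 eIF2 subunits were counted together in 65 of 92 cells, and this number of subunits per cell moved with the number of detected genes (r = 0.36, n = 92 cells), so a missing count at these levels does not show missing mRNA.

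Genes of eIF2B, the factor that reloads eIF2 with GTP, were each counted in fewer cells than Eif2s1, Eif2s2 and Eif2s3x. Per kilobase the levels of both groups overlapped, with Eif2b2 and Eif2b1 above Eif2s1 and Eif2b3 below Eif2s3x. Eif2b2, the beta subunit, was the highest per kilobase at 78.3 and was counted in 73 cells, with a median of 132, a highest value of 560 and a mean of 148 ± 134. Eif2b1 was counted in 66 cells at 117 ± 169, or 103 ± 101 without cell 18, which held its highest value of 1404. Eif2b5, the catalytic epsilon subunit, was counted in 58 cells at 88.2 ± 110 and Eif2b4 in 47 at 70.5 ± 96.3. Eif2b3 was the lowest per kilobase at 8.30 and was counted in 42 cells, with a median of 0 and a highest value of 422. All 5 subunits were counted together in 16 cells, and 3 cells had none of them. The number counted per cell again moved with detected genes (r = 0.44, n = 92 cells).

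The 4 kinases of eIF2alpha were the least abundant group with a role in this switch. Eif2ak1, the haem-regulated kinase HRI, was counted in 53 cells, with a median of 36.1, a highest value of 388 and a mean of 74.1 ± 96.2. Eif2ak2, the double-stranded RNA sensor PKR, was counted in 49 cells at 58.99 ± 90.03. Eif2ak4, the amino acid sensor GCN2, was counted in 48 cells at 40.9 ± 65.3. Eif2ak3, the endoplasmic reticulum stress sensor PERK, was counted in only 11 cells, with a highest value of 232, and its mean level per kilobase of 1.67 was 7.84-fold below that of Eif2ak1. No kinase mRNA was counted in 6 cells, 1 of the 4 in 32 cells, 2 in 34, 3 in 19 and all 4 in 1 cell. Eif2a and Eif2d, which can deliver initiator tRNA or act on ribosomes outside the eIF2 route, were counted in 72 cells at 214 ± 247 and in 63 cells at 114 ± 128.

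The 14 genes of eIF3, the scaffold that holds the small subunit, the mRNA cap complex and the scanning factors together, spanned a 144-fold range of mean level per kilobase, or 24.2-fold without Eif3j2, a near-copy with uncertain values. Eif3h was the highest. It was counted in every cell, from 5.41 over a median of 674 to 1776, with a mean of 709 ± 316. Eif3f and Eif3e had the highest normalized counts of the group. Eif3f (chr7:108934417-108942951, plus strand) ranged from 20.3 in cell 18 over a median of 1134 to 2340, at 1189 ± 462, and Eif3e from 469 over 1122 to 2677, at 1164 ± 433. Eif3m, Eif3i and Eif3k followed at mean normalized counts of 688 ± 336, 594 ± 329 and 563 ± 214. Eif3a, the largest subunit, had 442 ± 349, Eif3l 397 ± 318, Eif3g 319 ± 202, Eif3c 314 ± 244, Eif3b 200 ± 223 and Eif3d 195 ± 120. Of the exon length of Eif3d, 43.3% overlaps Gm17638, and unless strand was used in counting, the reads of such genes cannot be told apart.

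The loosely bound eIF3j subunit came at the bottom of the group. Eif3j1 was counted in 77 cells at 106 ± 103.9, or 18.2 per kilobase, and its near-copy Eif3j2 in 65 cells, from a median of 4.87 to 60.6, at 7.28 ± 9.51, or 3.06 per kilobase. The log values of both genes moved together over cells (r = 0.85, rho = 0.90, n = 92), and the mean of Eif3j2 was 6.86% of that of Eif3j1. The excluded pseudogene Eif4a-ps4 followed Eif4a1 in the same way (r = 0.94, mean 3.55% of Eif4a1), so values of such copies are uncertain where reads could be placed on either. Without Eif3j2, all 13 eIF3 subunits were counted together in 58 cells and the lowest cell had 9.

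In eIF4F, the complex that binds the cap and unwinds the mRNA leader, the helicase eIF4A was encoded mainly by Eif4a2. Eif4a2 (chr16:23107444-23114136, plus strand) ranged from 495 over a median of 1364 to 3938 (cell 63), with a mean of 1499 ± 606. Eif4a1 (chr11:69666936-69672423, minus strand), the copy known to prevail in growing cells, ranged from 10.1 over a median of 706 to 1920, at 786 ± 438. Both were counted in all 92 cells. Eif4a1 took 39.2% of their summed length-normalized counts, from 0.630% in the lowest cell to 76.5% in the highest, and over 50% in 27 cells. Over cells, the log values of the 2 genes were inversely related (r = -0.31, rho = -0.31, and -0.19 given detected genes, n = 92 cells). The share was 73.4% in cell 66, 67.7% in cell 78, 76.5% in cell 49 and 67.1% in cell 53, the cells with the highest G2/M scores, but 23.3% in cell 71, the next in that order. Cells 74 and 43, at ranks 17 and 39 of the G2/M score, had shares of 73.4% and 70.6%, so high shares were not particular to the cells of high score. Snora81, Snord2 and the end of Rfc4 are among the annotations that overlap 13.3% of the exon length of Eif4a2.

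The other parts of eIF4F were lower. Eif4e, the cap-binding protein, was counted in 88 cells, with a median of 316, a highest value of 1641 and a mean of 370 ± 291. The scaffold gene Eif4g1 was counted in 86 cells at 125 ± 121 and its paralog Eif4g3, the lowest of the group per kilobase at 6.05, in 72 cells, from a median of 35.7 to 384, at 66.98 ± 78.2. Eif4g1 took 73.8% of the length-normalized counts of the pair. Eif4b and Eif4h, which stimulate the helicase, had 372 ± 244 and 478 ± 292, each in 91 cells. Eif4e together with a gene of the eIF4G pair and a gene of the eIF4A pair was counted in 87 cells.

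Relatives of eIF4F with other tasks had a median of 16.4 per kilobase, against 83.2 for the 7 genes of eIF4F and its partners. Eif4a3, the helicase of the exon junction complex, was the highest of them per kilobase at 187 and was counted in 90 cells, with a median of 314 and a highest value of 1173. Eif4g2, a scaffold without the eIF4E-binding site that serves initiation outside the usual route, was counted in 89 cells, from a median of 331 to 2185 (cell 29), at 416 ± 391. Eif4e2, a cap-binding protein that represses translation, had 154 ± 157 in 80 cells, and Eif4e3 had 30.7 ± 50.6 in 50. Eif4enif1, which carries eIF4E into the nucleus and to processing bodies, was counted in 50 cells, from a median of 1.43 to 895, at 75.98 ± 139. Eif4e1b, known from oocytes, was counted in 1 cell at 0.762. Eif2c5, annotated as a long noncoding RNA and taken in by its symbol alone, was likewise counted in 1 cell, at 2.31.

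Of the 3 4E-BP repressor genes, Eif4ebp1 (chr8:27260329-27276674, plus strand) was the main one. It was counted in 88 cells, with a median of 180, a highest value of 614 and a mean of 205 ± 147. Eif4ebp2 (chr10:61428491-61452661, minus strand) was counted in 46 cells, with a median of 0.393 and a mean of 77.04 ± 158. Its values were uneven, with 25 cells over 100, the highest at 1044 in cell 18 and the next at 709 in cell 71. Eif4ebp3 had 0 counts in all 92 cells, which again allows a share of up to 3.26% of cells with a read. However, 67.3% of its exon length overlaps AC115631.1. Unless strand was used in counting, reads there cannot be told apart, and the limit does not cover reads lost in this way. The 0 therefore does not show that its mRNA is absent. Of the summed length-normalized counts, 87.5% were Eif4ebp1 and 12.5% Eif4ebp2. The median share over cells was 99.9% for Eif4ebp1 and 0.122% for Eif4ebp2. Both were counted in 43 cells, Eif4ebp1 alone in 45, Eif4ebp2 alone in 3 and neither in 1, so nearly every cell held a 4E-BP mRNA. Per kilobase of exon, the 4E-BP genes together reached 1.73 times the level of Eif4e over all cells, and 62 of 92 cells held more of them than of Eif4e. With the longest transcript as the length the ratio was 1.56 and with no correction for length 0.762, so the order of repressor and target mRNA depends on that correction. Eif4ebp1 and Eif4e had an r of -0.037 over the 92 cells.

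**Figure D2:**
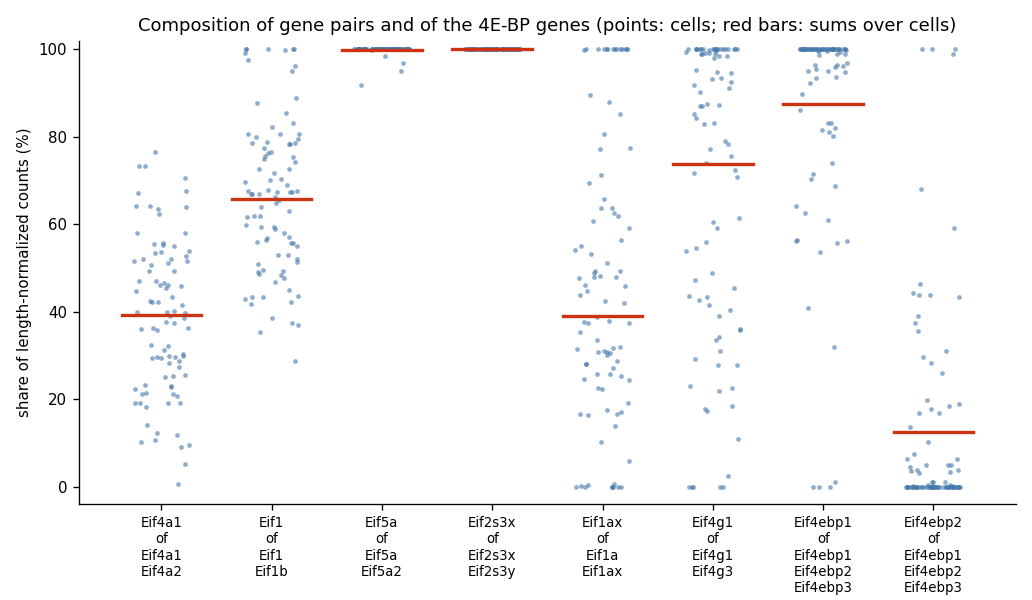
Share of length-normalized counts (%, y axis) that 1 gene took of a gene pair or of the 3 4E-BP genes (x axis) in each HSC1 cell with a count. Points are cells and red bars are shares of the sums over cells; the eIF4A, eIF1 and eIF1A pairs are mixed in most cells, whereas Eif5a and Eif2s3x stand at or near 100%.

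To see whether these genes differed between cells by more than the method allows, the squared coefficient of variation of each was set against the technical value fitted to ERCC spike-ins, RNAs added in equal amount to each well. None of the 54 members with counts was called variable (chi-square test of Brennecke et al., minimum biological coefficient of variation 0.5, Benjamini-Hochberg adjusted p under 0.1 over all genes). Of all 21211 genes, 2.64% were called, and of the 5888 with a mean of at least 50, which include 47 members, 4.50%. At an unadjusted p under 0.05 there was 1 member, Eif4ebp2 (p = 0.0062, adjusted p = 0.21 over all genes), against 4.27% of all genes. Its ratio to the technical value was 1.55, and 1.09 without cell 18. Lowering the minimum biological variation to 0 called Eif4ebp2, Eif4g2 and Eif5, which is 5.56% of the 54 members against 3.86% of all genes. Scaling by ERCC counts called Eif2s1, Eif4a1 and Eif5a, again 5.56%, against 4.94% of all genes, so both shares were near the background. The test asks whether variation exceeds noise by the set minimum, so a gene not called is not shown to be even.

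Without a significance level, 11 of 54 members (20.4%) lay above the technical value, against 12.4% of all genes. All 11 had a mean of at least 50, where they were 23.4% of 47 members against 24.8% of all such genes, so the members' share was near the background. After Eif4ebp2, the largest ratios were those of Eif5 (1.478), Eif4g2 (1.46), Eif2a (1.26) and Eif4enif1 (1.22), and the rest were Eif2b1, Eif3b, Eif5a, Eif1a, Eif3a and Eif3l, at 1.02 to 1.13. The ratios of Eif2b1, Eif5a and Eif3l were 0.474, 0.925 and 0.656 without cell 18. At the other end, among members with a mean of at least 50, Eif3k, Eif3d and Eif2s3x reached only 0.303, 0.328 and 0.350 of the technical value. The median ratio was 0.662 for the 47 members with a mean of at least 50 and 0.778 for all such genes. As most genes lay below the fitted technical value, a ratio under 1 does not show that a gene is even. By group, the median ratio was 0.529 for eIF3, 0.448 for eIF2, 0.654 for eIF4F and its partners and 0.860 for the scanning factors.

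**Figure D3:**
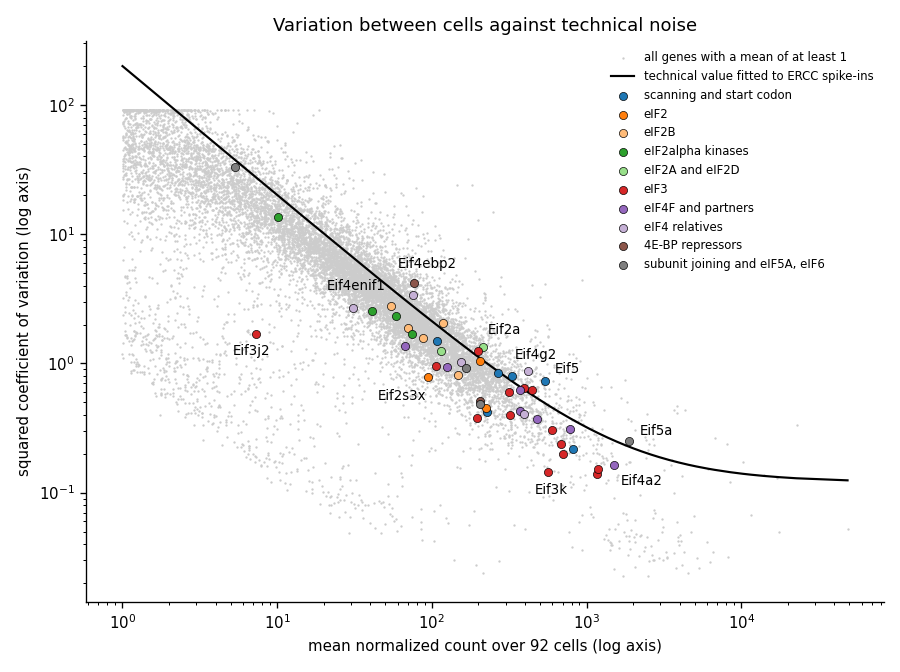
Squared coefficient of variation over 92 HSC1 cells (y axis, log scale) against mean normalized count (x axis, log scale) for all genes with a mean of at least 1 (grey) and for the initiation factor genes among them (coloured by group). The black line is the technical value fitted to ERCC spike-ins; 11 members lie above it, with Eif4ebp2, Eif5 and Eif4g2 farthest in ratio, and no member passed the test.

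The mRNAs of subunits that are built into 1 complex had correlations near 0 over cells. On log10(normalized count + 1), the median Pearson's r over the 91 pairs of eIF3 genes was -0.0035, with a range from -0.32 for Eif3f and Eif3l to 0.85 for the near-copies Eif3j1 and Eif3j2. The median was 0.013 over the 3 pairs of eIF2, 0.10 over the 10 pairs of eIF2B, 0.040 over the 21 pairs of eIF4F and its partners and -0.0062 over the 15 pairs of scanning factors. All eIF2B pairs were positive, from 0.030 to 0.28, as were the 3 pairs of Eif5a, Eif5b and Eif6 (0.046 to 0.27, median 0.12). Pairs of members from different groups had a median of 0.023, and pairs of all 5887 genes with a mean of at least 50 one of 0.013. Cells share a plate, and each value carries technical noise that lowers any r, so these values describe the libraries. Scaling by ERCC counts in place of gene counts, which leaves the total RNA of a cell in the values, raised the median of eIF3 to 0.24 and that of different groups to 0.15.

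Apart from Eif3j1 and Eif3j2, the largest r joined Eif4a1 and Eif5a, at 0.46 (rho = 0.51, and 0.38 given detected genes, n = 92 cells). Eif5a also moved with Eif3i (r = 0.35, rho = 0.40) and Eif2s1 (r = 0.34, rho = 0.39), and against Eif4a2 (r = -0.28, rho = -0.25) and Eif3f (r = -0.30, rho = -0.24). Given detected genes, r was 0.33 with Eif3i, 0.27 with Eif2s1, -0.16 with Eif4a2 and -0.39 with Eif3f. Eif3h and Eif4h reached r = 0.44 but rho = -0.058, and Eif3f and Eif3m r = 0.42 but rho = 0.10, so the ranks of these pairs were nearly unrelated. Cell 18 had the lowest Eif3f and no count of Eif3m.

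**Figure D4:**
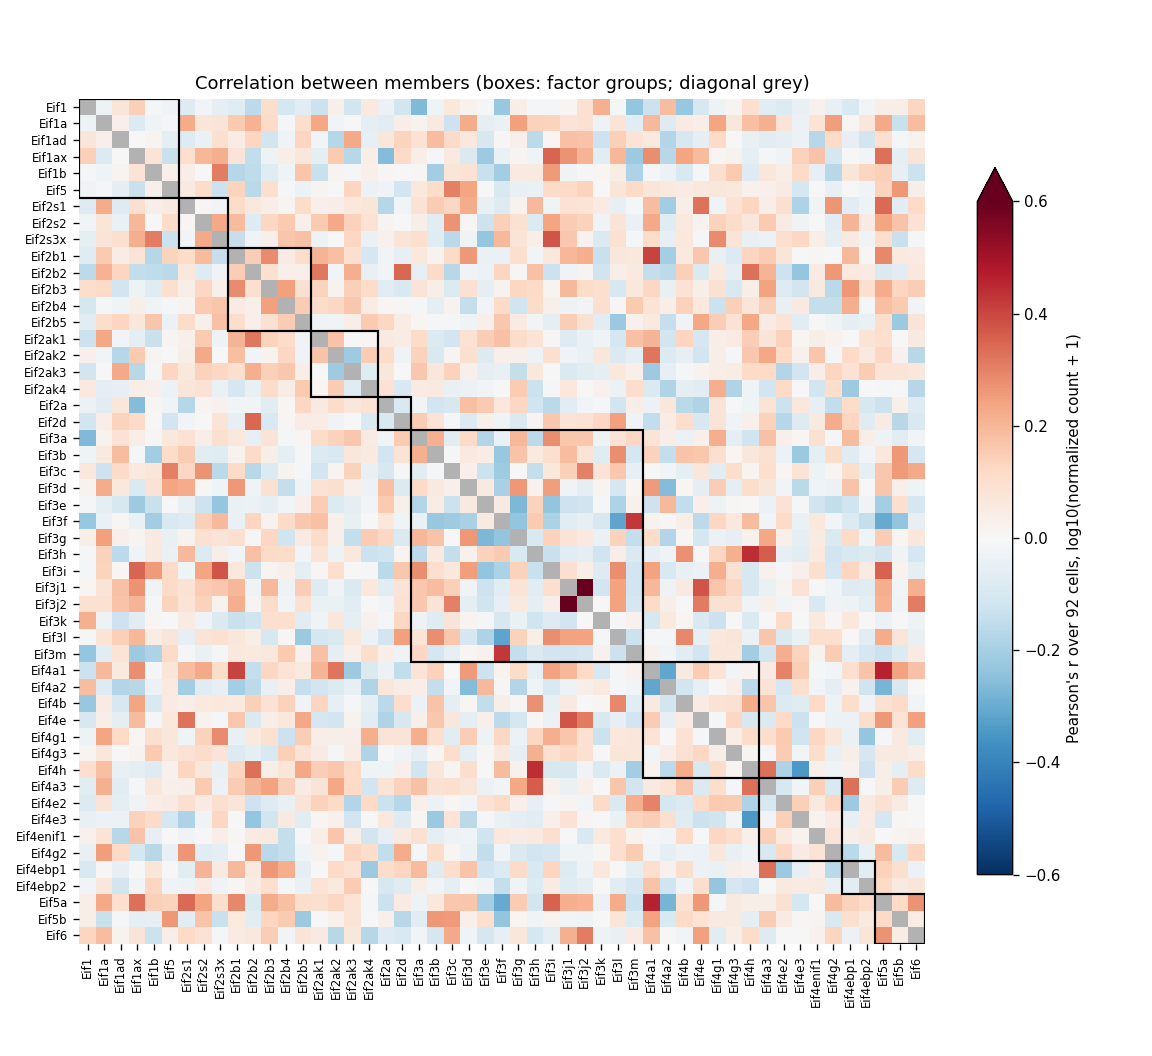
Pearson's r over 92 HSC1 cells between the log10 values of 51 members counted in at least 10 cells (rows and columns, by factor group; colour from blue at -0.6 to red at 0.6). Black boxes enclose the factor groups and the diagonal is grey. Most boxes hold no more colour than the rest, apart from Eif3j1 and Eif3j2 (0.85). All pairs within eIF2B (0.030 to 0.28) and among Eif5a, Eif5b and Eif6 (0.046 to 0.27) are weakly positive.

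Across the whole cell, the score of the members, their mean z score over 51 genes, had r = 0.66 with the number of detected genes (rho = 0.65, n = 92 cells) and r = -0.34 with the share of ERCC counts (rho = -0.34). Of the 46 members with a mean of at least 50 in at least 46 cells, 40 had a positive r with detected genes (87%), against 80.2% of all 5095 such genes, and 14 with ERCC share (30.4%), against 31.2%. With the G2/M score, the members' score had r = 0.44 (rho = 0.31, and 0.24 given detected genes), and 41 of the 46 members were positive (89.1%) against 69.1% of all genes. That share depends on the measure. Most of the 41 were also positive by rho, but several were negative, among them Eif3g (-0.13), Eif3l (-0.083), Eif4h (-0.067) and Eif3k (-0.061). No share of positive rho over all genes is given here. Without cells 49, 53, 66 and 78 the r of the members' score was 0.19, and without cell 71 as well it was 0.22. The part of these cells beyond these values was not tested. Pf4, which marks megakaryocytes and platelets, and Itga2b also moved with the G2/M score (r = 0.51 and 0.43), and their part in the result was not tested.

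Single members differed in sign. Eif4a2 had the largest r with the G2/M score, at -0.39 (rho = -0.23), and the only one under -0.3 among the 46 (2.17%, against 1.43% of all such genes). Its lowest values, 495 and 509, were in cells 49 and 66. Without the 4 cells of highest G2/M score its r was -0.15, and without the 5 highest -0.16. With detected genes, Eif4a2 had r = -0.41 (rho = -0.38) and Eif4a1 r = 0.36 (rho = 0.44). Eif5a had r = 0.28 with the G2/M score (rho = 0.16), -0.038 without those 4 cells and 0.081 without the 5. For Eif4a1, Eif2ak1 and Eif2b4, r was 0.19 each, then 0.042, 0.13 and 0.17 without the 4 cells and 0.18, 0.039 and 0.072 without the 5. With ERCC size factors, the r of Eif4a2 with detected genes turned to 0.29 and with the G2/M score to 0.046. When all cells with at least 100000 gene counts were used, they were 0.22 and -0.13, so the sign of Eif4a2 against detected genes depends on the cells kept as well as on the scaling.

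With the score of 84 ribosomal protein genes, the products of which form the ribosome that these factors load, members were divided. The score of the members had r = -0.17 (rho = -0.27, n = 92 cells), and 17 of the 46 members were positive (37%), against 54.7% of all genes. An r over 0.3 was found for 3 members (6.52%, against 3.1%) and one under -0.3 for 1 (2.17%, against 1.2%). The sign depended on the scaling: with total counts r was 0.17 and with ERCC size factors 0.84. The largest r were those of Eif3f (0.57, rho = 0.16), Eif3m (0.35, rho = -0.14) and Eif2s3x (0.32, rho = 0.17), and on the negative side those of Eif1 (-0.30, rho = -0.25) and Eif5 (-0.29, rho = -0.28). Cell 18, the lowest in ribosomal protein score, had 20.3 of Eif3f, 0 of Eif3m and 0 of Eif2s3x, and without it r was 0.31, -0.12 and 0.22. Without the 2 cells farthest from the median score, the r of Eif3f was 0.095. For Eif1 and Eif5 it was then -0.19 and -0.32, and without cell 18 alone it was -0.20 and -0.35. Eif3f and Eif2s3x carry a run of C and T across an annotated start, as printed above, and that of Eif3m ends before the start. Eif3l, whose r was -0.21, carries one across its start as well. So does Eif2b5, whose run of 21 letters is the longest found for a member and whose r was 0.074 (rho = -0.026). In Eif3k the run lies after the start, and r was -0.064. Among members with a promoter sequence and a mean of at least 50 in at least 46 cells, the median r was 0.074 for the 9 with a run. It was -0.077 for the 30 without, as a description that includes cell 18. The sign for the 9 depends on the measure. By rho, Eif3m (-0.14), Eif4e (-0.14), Eif3k (-0.13), Eif3l (-0.10) and Eif2b5 (-0.026) were negative and the others positive.

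**Figure D5:**
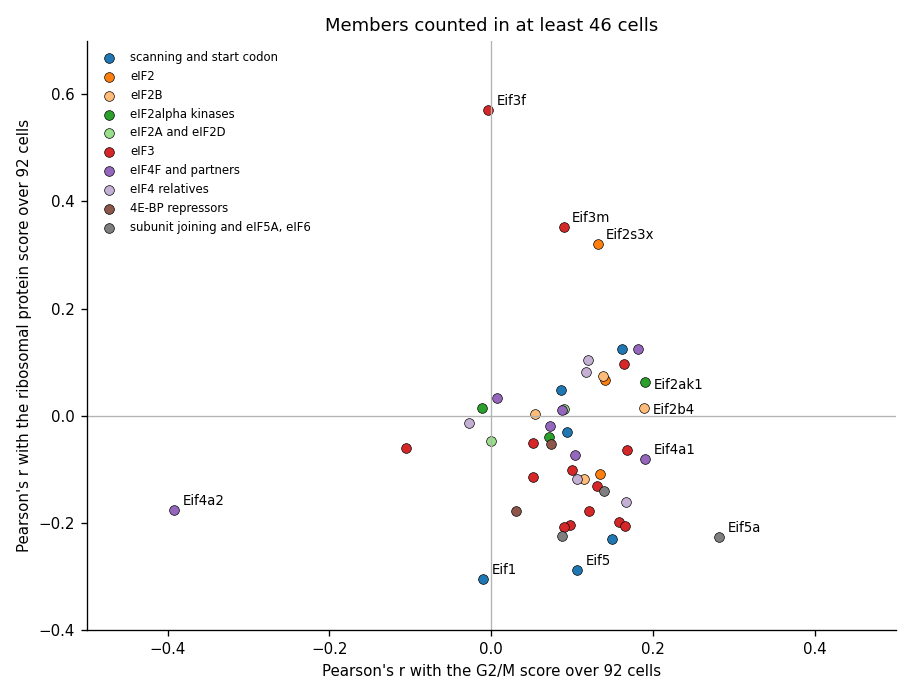
Pearson's r over 92 HSC1 cells of each member counted in at least 46 cells with the G2/M score (x axis) and with the ribosomal protein score (y axis), coloured by group. Most points lie right of 0 on the x axis; Eif4a2 stands alone at -0.39 and Eif3f, whose value rests on few cells (0.095 without the 2 farthest), at 0.57 on the y axis.

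Of 44 related genes of the pathway with counts, 1 was called variable (2.27%), a share near the 2.64% of all genes. None of the 13 genes of the mTORC1 axis was called variable, and Mtor itself was counted in 38 cells at 36.8 ± 67.2. Of 15 initiation cofactors with counts, 0 were called, among them Pabpc1, the poly(A)-binding protein, at 786 ± 405, and 0 of 7 elongation factors, of which Eef1a1 was the highest at 17540 ± 3913. Both mitochondrial initiation factor genes, Mtif2 and Mtif3, were likewise not called. In the integrated stress response, the pathway downstream of the eIF2alpha kinases, 1 of 7 genes was called. This was Ppp1r15a, the inducible subunit of the phosphatase that removes the phosphate from eIF2alpha, counted in 76 cells from a median of 241 to 3451, at 467 ± 627, with a ratio of 3.29 to the technical value (adjusted p = 5.5e-08, chi-square test over all genes). Atf4, the transcription factor whose translation rises when eIF2alpha is phosphorylated, was counted in 90 cells at 376 ± 228 and had a ratio of 0.562.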

How the data were processed

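Single bone marrow cells were sorted into wells, amplified and sequenced. The values the authors deposited are unnormalized counts of reads for every gene and ERCC spike-in, without molecular identifiers. Per the submitters' processing notes, STAR 2.3.0, SAMtools 0.1.18, HTSeq 0.6.1 and mm10 were used. Whether strand was used in counting is not given in the sources used here. Cells over 3 scaled median absolute deviations from the median in gene counts, detected genes (both too low, on log10 values) or ERCC share (too high) were left out (cells 1, 2, 6 and 36), leaving 92. Counts were divided by size factors, the medians of ratios over 602 genes, or 8 spike-ins for ERCC. Technical noise was fitted over 16 spike-ins as in Brennecke et al., and p-values were adjusted over all 21211 genes with counts. They cover noise in these cells and not variation between animals. The steps were tested on simulated data, where false calls were many and lay mostly at low means. The shares of all genes called variable may therefore include false calls. Lengths, overlaps and gene coordinates came from GENCODE M21 on GRCm38, where all 56 members were found by symbol. The transcription starts of the printed sequences came from a separate set of promoters and can lie away from the ends of these genes. A length is the union of annotated exons. Scores are mean z scores of log10(normalized count + 1).

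The members, groups and lists were chosen with earlier results of these data known. Each member is named with its group, and full values are given for called members, the highest and lowest per kilobase of each group, the 5 largest ratios to the technical value, the 5 largest r with the G2/M and ribosomal protein scores, the paralog pairs and members at 0. Eif2b1, Eif3e and other members with values beyond this rule, the cells named by number and the pairs of members with the largest r were chosen after their values were seen. Alternatives covered the cells kept, size factors, noise fit, test settings, pseudocount, ranks, detected genes and gene length. The software was Python 3.11.15, scipy 1.17.1, pandas 2.3.3, matplotlib 3.10.9 and numpy 2.4.6.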

Additional observations from a re-analysis of the deposited data

How the results depend on the processing

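With ERCC size factors, 3 members were called variable (Eif2s1, Eif4a1 and Eif5a, 5.56% of 54 against 4.94% of all genes) and 28 lay above the technical value (51.9% against 24.9%). The 24.9% is over all genes with counts, most of them with lower means than the members. No background at a mean of at least 50 is given for this setting, so the 2 shares are not matched in level. Under ERCC size factors the median r of pairs was 0.12 for eIF2, 0.24 for eIF3, 0.22 for eIF4F, 0.12 for scanning factors, 0.27 for the joining group and 0.15 between groups. The members' score then had r = -0.80 with ERCC share, 0.78 with detected genes and 0.84 with the ribosomal protein score. A minimum biological coefficient of variation of 0 called 3 members (Eif4ebp2, Eif4g2 and Eif5; 5.56% against 3.86%), and 0.25, or spike-ins above the 50th percentile, called 1 (Eif4ebp2; 1.85% against 3.42% and 6.27%). The adjusted p of Eif4ebp2 ranged from 3.6e-04 to 1 over the settings and was 1 without cell 18. Given detected genes, the median r of eIF2 was -0.090, and the members' score had r = 0.017 with ERCC share, 0.24 with the G2/M score and -0.45 with the ribosomal protein score. The kinases had a median r of 0.15 when only those counted in at least 46 cells were used. With total-count size factors the members' score had r = -0.47 with ERCC share and 0.17 with the ribosomal protein score, and with all cells of at least 100000 gene counts -0.51 with ERCC share. Its r with the G2/M score was 0.31 as Spearman's rho and 0.19 without cells 49, 53, 66 and 78 and 0.22 without cell 71 as well, settings chosen after seeing the data, and its r with the ribosomal protein score was -0.29 without the 2 cells farthest from the median. The causes were not tested. Among the other 129 comparisons of these summary values with an alternative, those of an r, a count or a level moved by less than 0.1 in r, 1.5 times in a count or 1 SD in a level. The 129 also include shares within gene families, some of which differed between the sums over cells and the median over cells. The shares were 12.5% and 0.122% for Eif4ebp2, 87.5% and 99.9% for Eif4ebp1, and 73.8% and 83.3% for Eif4g1. No paired analysis was possible because there is 1 group. Members with means under 50 are counted in few reads, and their absence from a cell is not shown at this depth.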
